A study of Mus musculus with 10 samples.

Results

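Zinc transporters and metallothioneins were followed in pancreatic islets, the endocrine clusters of the pancreas that consist mostly of insulin-producing beta cells. The set was chosen by gene symbol and holds 10 genes of the 27665 in the deposited table. It comprises the zinc exporters Slc30a8, Slc30a1, Slc30a5, Slc30a7 and Slc30a9, the zinc importers Slc39a6, Slc39a7 and Slc39a14, and the metallothioneins Mt1 and Mt2. All 10 were found and all 10 passed the filter on low counts. RNA was sequenced from islets of 5 male C57BL/6J mice fed a western diet and 5 male C57BL/6J mice fed standard chow. C57BL/6J is a common inbred laboratory strain, and the labels name no transgene or drug. The feeding lasted 4 weeks, the labels give an age of 8 to 10 weeks, and each library came from 1 mouse. All 5 chow mice came from cage 3, 4 western diet mice from cage 4 and 1 from cage 2. Diet and cage can therefore not be told apart. Total counts ranged from 16532518 to 23902681 per library.

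Zinc moves through cells by opposing families of membrane proteins. ZnT proteins, encoded by Slc30a genes, carry zinc out of the cytosol into organelles or out of the cell, and ZIP proteins, encoded by Slc39a genes, carry it into the cytosol. Metallothioneins are small cysteine-rich proteins that bind zinc and copper and are induced through the metal-sensing transcription factor MTF1. Beta cells hold unusually large amounts of zinc because insulin is packed with zinc in secretory granules, and the granule transporter ZnT8, the product of Slc30a8, loads it there.

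The western diet islets held less Slc30a8 mRNA and more mRNA of Slc30a5 and Slc30a7, which encode zinc carriers of the early secretory pathway. Slc30a8 fell by 0.27 on the log2 scale, a ratio of 0.829. Slc30a5 rose to 1.36 times the chow level and Slc30a7 to 1.16 times. Mt1, the abundant metallothionein, stood at 0.713 of the chow level, but its adjusted p of 0.0589 in edgeR's quasi-likelihood test missed the threshold of 0.05. A gene is called here when its Benjamini-Hochberg adjusted p in that test, over all 15104 genes tested, is under 0.05. By that rule 2 of 10 members rose, 1 of 10 fell and 7 did not pass.

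Over all genes tested, 10.8% were called, 5.27% as higher and 5.5% as lower on the western diet. The members' 3 calls of 10 are set against that background as a description of a small set. The median log2 fold change was -0.07 over the members and 0.01 over all genes tested. The median size of the change, without its sign, was 0.20 among the members and 0.13 among all genes. In 3 of the 10 members every library of one diet lay beyond all of the other, against 8.85% of all genes tested. The 3 are the members that were called.

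**Figure D1:**
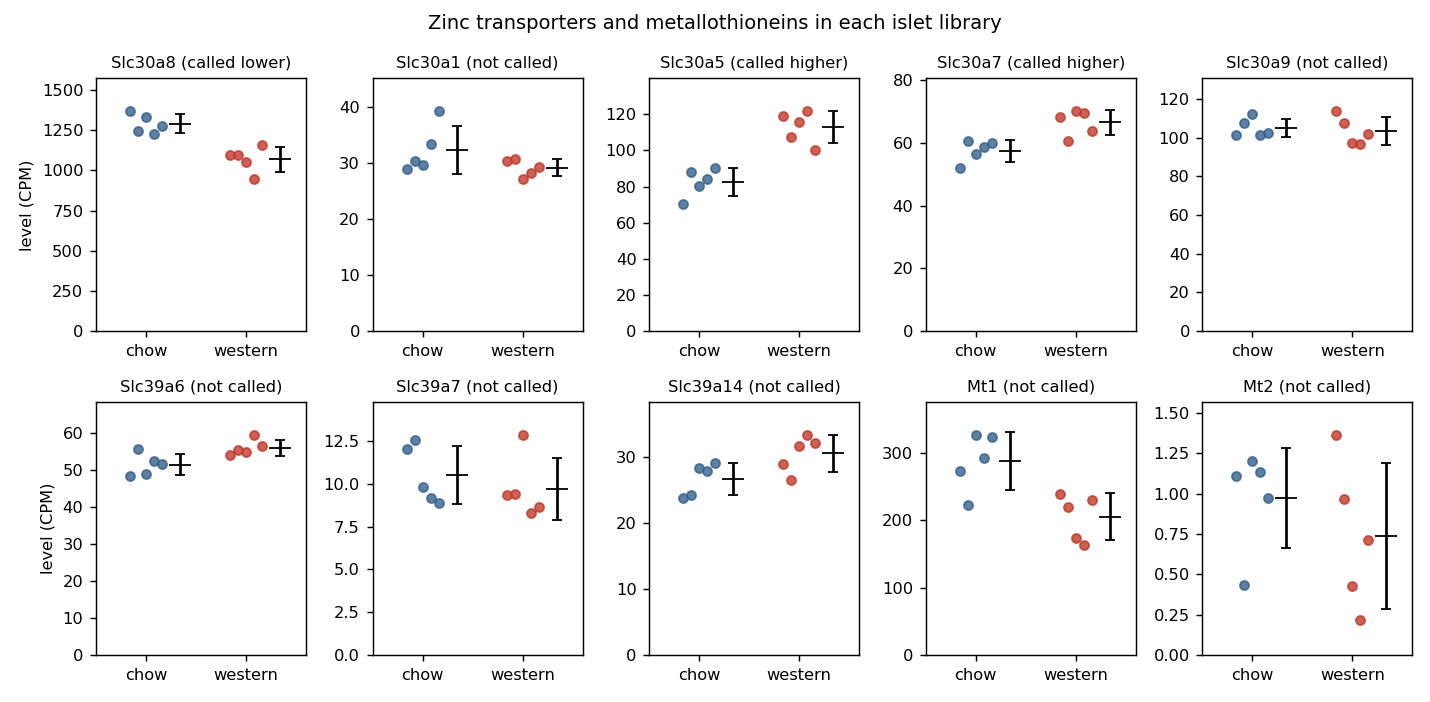
Level of each member in CPM (counts scaled to library size, vertical axes from 0) in the 5 chow (blue) and 5 western diet (red) libraries, with the mean and SD in black. Slc30a8 lies lower, and Slc30a5 and Slc30a7 lie higher, in every western diet library than in any chow library, while the other 7 members overlap.

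Slc30a8 carried the highest level of the families in these islets. Levels below are CPM, counts scaled to the library size, which allow a gene to be compared between libraries. In the western diet libraries Slc30a8 stood at 1093, 1095, 947 and 1053 CPM in mice 1, 2, 4 and 5 of cage 4 and at 1157 CPM in the mouse of cage 2. In the chow libraries it stood at 1367, 1247, 1335, 1226 and 1274 CPM in mice 1 to 5. The highest western diet library was thus below the lowest chow library. The means were 1069 ± 77.5 CPM (SD, n = 5) on the western diet and 1290 ± 59.4 CPM (SD, n = 5) on chow. The log2 fold change was -0.27 ± 0.05 (SE), with an adjusted p of 0.00452 in edgeR. The call held under all 22 alternative fits, with log2 fold changes from -0.30 to -0.24.

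Islet samples are bulk tissue, in which fewer cells of a type and less RNA per cell cannot be told apart. Of 10 beta cell marker genes, 2 were called higher (G6pc2 and Iapp), 1 was called lower (Slc2a2) and 7 were not called. Slc2a2 encodes GLUT2, the glucose transporter of mouse beta cells, and its log2 fold change was -0.54 ± 0.10 (SE) with an adjusted p of 0.00748 in edgeR. G6pc2 encodes a glucose-6-phosphatase subunit of islets and changed by 0.47 ± 0.05 (SE) with an adjusted p of 3.82e-05 in edgeR. The summed CPM of the 10 markers ran from 242021 to 276858 on the western diet and from 231078 to 267175 on chow, ranges that overlap; Ins1, Ins2 and Iapp make up nearly all of that sum. By sign, 4 of the 10 markers were higher and 6 lower, and of those not called Nkx6-1, Pdx1 and Trpm5, all on the lower side, had an unadjusted p under 0.05. The part of cell composition in the Slc30a8 value was not tested.

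The 5 genes whose level followed Slc30a8 most closely from mouse to mouse included Trpm5 and Slc2a2. Likeness was measured as Pearson's r of log2 CPM after each diet's mean was removed, over 10 libraries and 10389 protein-coding genes of at least 5 CPM. The 5 highest were Trpm5 (r = 0.99), Tipin (0.97), Slc2a2 (0.97), Mtcl1 (0.96) and Cnot6l (0.96). Trpm5 encodes a cation channel of beta cells, and Trpm5 and Slc2a2 both stand on the beta cell marker list. The other markers of that list were not among the 5, and their r is not given here. These values describe the closest of many genes over few libraries that share their depth and their islet preparation, and they carry no test.

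**Figure D2:**
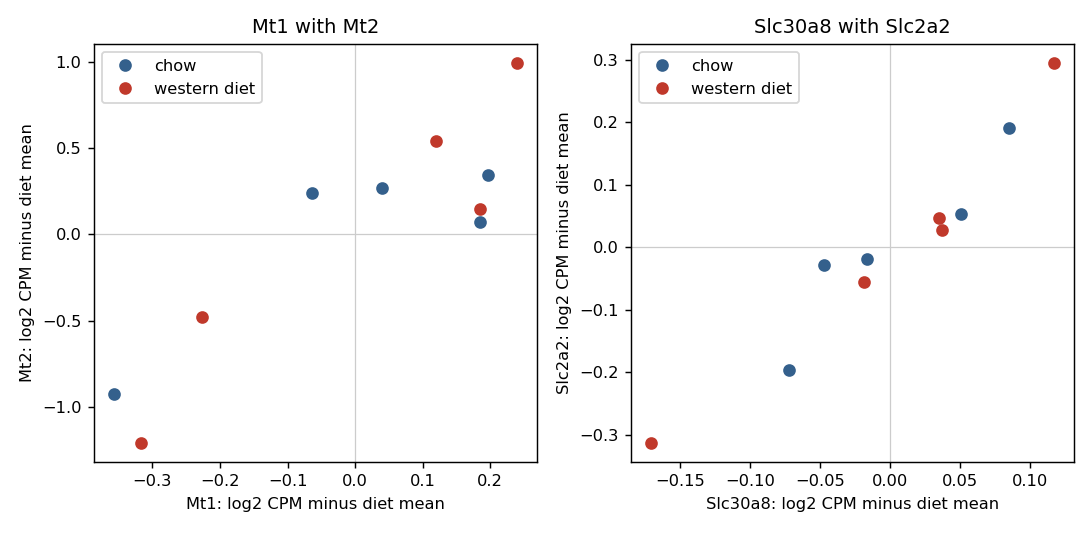
Deviation of each library from its diet mean (log2 CPM) for Mt2 against Mt1 (left) and for Slc2a2 against Slc30a8 (right), with chow in blue and western diet in red. On the left 3 libraries lie low for both genes; on the right the points lie along a line, with r = 0.97.

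Slc30a5 encodes ZnT5, which pairs with ZnT6, the product of Slc30a6, to carry zinc into the early secretory pathway. There zinc is needed by secreted and membrane-bound enzymes such as alkaline phosphatases. Slc30a5 stood at 119, 107, 122 and 116 CPM in mice 1, 2, 4 and 5 of cage 4 and at 100 CPM in the mouse of cage 2. Chow mice 1 to 5 had 70.2, 87.8, 80.0, 84.3 and 90.5 CPM. All 5 western diet libraries lay above all 5 chow libraries. The means were 113 ± 8.76 CPM (SD, n = 5) and 82.6 ± 7.95 CPM (SD, n = 5). The log2 fold change of 0.45 ± 0.07 (SE) had an adjusted p of 7.37e-04 in edgeR, and it was called under all 22 alternatives with values from 0.39 to 0.49. Slc30a6, the partner, is no member. It averaged 16.7 ± 2.17 CPM (SD, n = 5) on the western diet and 14.5 ± 0.926 CPM (SD, n = 5) on chow, and its log2 fold change of 0.20 ± 0.09 (SE) was not called (adjusted p = 0.168, edgeR).

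Slc30a7 encodes ZnT7, which works in the same compartments as a pair with itself. It stood at 68.3, 60.7, 69.5 and 70.0 CPM in mice 1, 2, 4 and 5 of cage 4, at 63.8 CPM in the mouse of cage 2, and at 51.8, 60.5, 56.4, 58.5 and 60.0 CPM in chow mice 1 to 5. The diets did not overlap, but the lowest western diet library and the highest chow library, 60.7 and 60.5 CPM, nearly met. The log2 fold change was 0.21 ± 0.06 (SE) with an adjusted p of 0.0249 in edgeR. The call was lost in 8 of 22 alternatives, while the fold change stayed between 0.17 and 0.24. It was lost without western diet mouse 1 (adjusted p = 0.0535), mouse 4 (0.072) or mouse 5 (0.0636) of cage 4 and without chow mouse 1 (0.0783) or mouse 3 (0.0641). It was also lost with the mean of endothelial markers as a covariate (0.18 ± 0.07, SE, adjusted p = 0.118 in edgeR). With that covariate the calls among all genes tested fell from 1627 to 870, so the loss is not particular to Slc30a7. The summed CPM of the 7 endothelial markers, which itself differed by diet, was 351 to 406 on the western diet and 406 to 447 on chow. By sign 2 of the 7 were higher and 5 lower, and 1, Kdr, was called lower. The part of endothelial cells in the Slc30a7 value was not tested.

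The other exporters among the members showed smaller differences. Slc30a1 encodes ZnT1, the exporter of the plasma membrane and a target of MTF1. It ran from 27.2 to 30.7 CPM on the western diet and from 29.0 to 39.3 CPM on chow, with a log2 fold change of -0.15 ± 0.08 (SE, adjusted p = 0.226 in edgeR). Slc30a9 encodes ZnT9, a mitochondrial zinc carrier. Its means of 103 ± 7.12 and 105 ± 4.63 CPM (SD, n = 5 each) differed by less than the spread between mice, with a log2 fold change of -0.02 ± 0.05 (SE, adjusted p = 0.832 in edgeR). The interval of 2 SE around that value ran from -0.13 to 0.08.

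None of the 3 importers was called by edgeR or in any of 22 alternatives, DESeq2 and limma-voom included, while 2 of them, Slc39a6 and Slc39a14, had an unadjusted p under 0.05. Slc39a6 encodes ZIP6, a plasma membrane importer, and averaged 56.0 ± 2.12 CPM (SD, n = 5) on the western diet and 51.4 ± 2.89 CPM (SD, n = 5) on chow. Its log2 fold change was 0.12 ± 0.05 (SE, adjusted p = 0.142 in edgeR). Slc39a14 encodes ZIP14, which imports zinc, manganese and iron. It averaged 30.6 ± 2.76 and 26.7 ± 2.45 CPM (SD, n = 5 each), a log2 fold change of 0.20 ± 0.08 (SE, adjusted p = 0.107 in edgeR). Slc39a7 encodes ZIP7, which releases zinc from the endoplasmic reticulum into the cytosol. It ran from 8.32 to 12.9 CPM on the western diet and from 8.89 to 12.6 CPM on chow, with a log2 fold change of -0.12 ± 0.13 (SE, adjusted p = 0.601 in edgeR). In each importer the diets overlapped.

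Mt1 stood at 240, 220, 163 and 173 CPM in western diet mice 1, 2, 4 and 5 of cage 4 and at 231 CPM in the mouse of cage 2. Chow mice 1 to 5 had 273, 223, 327, 293 and 324 CPM. The chow library of mouse 2 lay among the western diet libraries, and the other 4 chow libraries lay above all of them. The means were 205 ± 34.9 CPM (SD, n = 5) and 288 ± 42.8 CPM (SD, n = 5). The log2 fold change was -0.49 ± 0.14 (SE), the largest in size among the members, with an adjusted p of 0.0589 in edgeR. The side of the threshold depended on the fit: 7 of 22 alternatives called Mt1 lower, and the fold change stayed between -0.57 and -0.42. Over the 22 alternatives the adjusted p ran from 0.0101 with DESeq2 to 0.181 with the endothelial marker mean as a covariate. It was 0.0208 in edgeR without chow mouse 2, 0.128 with no filter on low counts and 0.171 with mouse number as a block.

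Other genes and the libraries' acinar signal were set beside Mt1 as a description. Of 10 heat shock and immediate early genes, 9 were called lower and none higher, with a median log2 fold change of -0.85. The 3 with the smallest p were Jun (-1.02 ± 0.06, SE), Egr1 (-0.68 ± 0.06, SE) and Dnajb1 (-1.77 ± 0.10, SE), with adjusted p of 1.06e-07, 1.84e-06 and 2.14e-06 in edgeR. The acinar marker genes, which mark enzyme-producing cells of the surrounding pancreas, varied widely. Their summed CPM was 844, 1460, 3774 and 6083 in western diet mice 1, 2, 4 and 5 of cage 4 and 989 in the mouse of cage 2, and ran from 723 to 2981 on chow. Of the western diet libraries, mice 4 and 5 had the most acinar signal and the least Mt1. In chow mice 1 to 5 the acinar sum was 723, 2814, 1818, 2981 and 1896, beside Mt1 at 273, 223, 327, 293 and 324 CPM. Chow mouse 2 had the least Mt1 and more acinar signal than mice 1, 3 and 5. Chow mouse 4 had the most acinar signal and mouse 1 the least. With the mean of the acinar markers as a covariate the Mt1 log2 fold change was -0.50 ± 0.11 (SE, adjusted p = 0.0186 in edgeR). The part of the heat shock genes in the Mt1 value was not tested.

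Mt2 lies next to Mt1 on chromosome 8, yet it was almost absent from the counts. Its libraries held 4 to 29 reads, while those of Mt1 held 2858 to 7660. It stood at 1.36, 0.967, 0.215 and 0.424 CPM in western diet mice 1, 2, 4 and 5 of cage 4, at 0.712 CPM in the mouse of cage 2, and at 0.436 to 1.20 CPM on chow. The log2 fold change of -0.37 ± 0.41 (SE, adjusted p = 0.605 in edgeR) was smaller than its error at this depth.

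The gene models bear on this count. In GENCODE M21, an annotation of the same mouse build, 73.5% of the 588 exonic bases of Mt2 lie under the exon of Gm45774, an antisense gene on the opposite strand, which leaves 156 bases of its own. Slc39a7 shares 80.7% of its 2584 exonic bases with exons of Gm20427, a transcript on the same strand, and keeps 500. Gm45774 and Gm20427 themselves averaged 18.1 and 15.4 reads per library. These were the highest shares among the members: Slc30a7 had 16.01%, Slc30a1 8.92% and the other 6 members 0%. Mt2 and Slc39a7 were also the members with the lowest CPM. The sources used here do not give how reads in shared bases were counted, so the levels of Mt2 and Slc39a7 are uncertain, and the part of the overlap in their low counts was not tested.

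**Figure D3:**
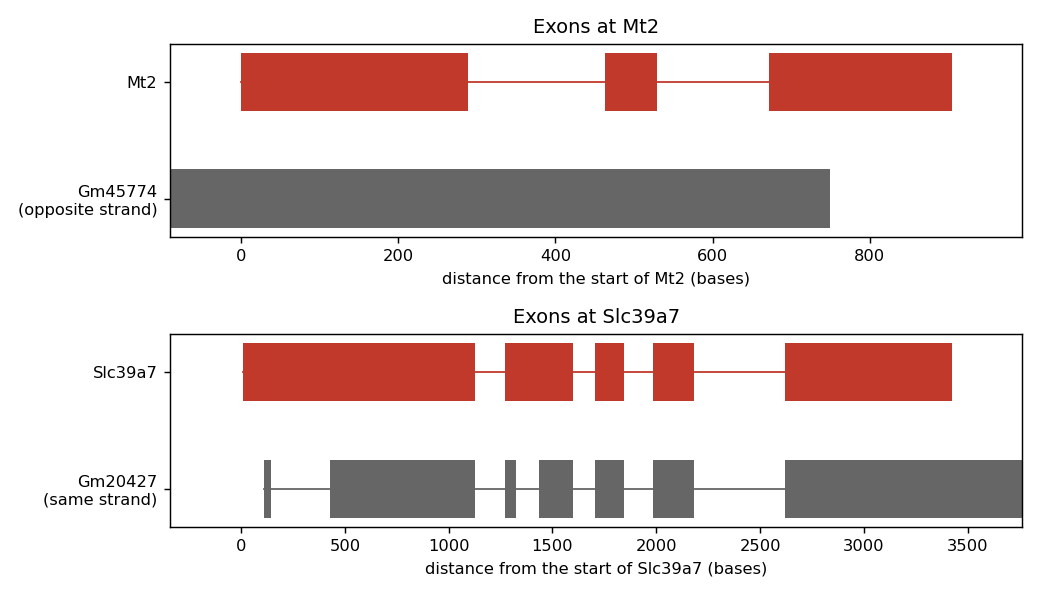
Exons (boxes) of Mt2 and Slc39a7 (red) and of the annotated genes that share bases with them (grey), by distance in bases from the start of each red gene; both grey genes run on past the edge of the panel. Gm45774 covers Mt2 into its last exon, leaving 156 exonic bases free, and Gm20427 covers most exonic bases of Slc39a7, leaving 500.

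Mt1 and Mt2 varied together between mice. After each diet's mean was removed, log2 CPM of Mt1 and Mt2 had r = 0.89 over 10 libraries (two-sided exact permutation within diets, p = 0.00368, adjusted p = 0.011 over 3 relations) and Spearman's rho = 0.76 (exact permutation p = 0.0219, adjusted p = 0.0656). Without the 2 libraries farthest from the median of Mt1, r was 0.85 (exact permutation p = 0.0295), and with any 1 library left out it stayed between 0.85 and 0.92. The plot of deviations shows 3 libraries low for both genes relative to their diet means, western diet mice 4 and 5 of cage 4 and chow mouse 2. Among the other 7 libraries r was 0.13. That value is a description, since the 3 were picked after seeing that they were low for both genes, a choice that by itself lowers r. Their summed acinar CPM was 3774, 6083 and 2814, against 723 to 2981 in the other 7.

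The other relations examined passed neither by r nor by rho. Mt1 with Slc30a1, both known MTF1 targets, had r = 0.51 (exact permutation p = 0.141, adjusted p = 0.212) and rho = 0.41 (exact permutation p = 0.265, adjusted p = 0.265). Without the 2 libraries farthest from the median of Mt1, its r was 0.75 (exact permutation p = 0.0625). Mt1 with Fkbp5, a glucocorticoid-induced gene, had r = -0.27 (exact permutation p = 0.473, adjusted p = 0.473) and rho = -0.49 (exact permutation p = 0.186, adjusted p = 0.265). Its r changed sign to 0.11 without the 2 libraries farthest from the median of Mt1 (exact permutation p = 0.812).

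The genes most like Mt1 by the same measure were Anapc10 (r = 0.97), Gclc (0.95), Tprgl (0.93), Acsl3 (0.93) and Lysmd2 (0.93). Those most like Mt2 were Nol3 (0.96), Prkacb (0.95), Lysmd2 (0.95), Rpl21 (0.93) and Sox12 (0.91). Lysmd2 stood on both lists, which are not independent because Mt1 and Mt2 had r = 0.89 over the same libraries. The Mt2 list rests on 4 to 29 reads per library, and neither list carries a test. Gclc encodes the catalytic subunit of the enzyme that limits glutathione synthesis. Its diet difference had the opposite sign to that of Mt1, with a log2 fold change of 0.22 ± 0.06 (SE, adjusted p = 0.0197 in edgeR).

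Promoter sequences were read for the metallothioneins, whose levels were correlated by Pearson's r, and for Slc30a5, the member with the smallest adjusted p. Windows of 250 bases before and 50 after the start were taken from RefSeq on GRCm38.p6, and 7 of 10 members had one. Slc30a8, Slc39a6 and Slc39a14 had no window here and were not searched. The core of the metal response element bound by MTF1 was searched as TGCACNC or TGCGCNC, and the unfolded protein response element bound by XBP1 as TGACGTGG. Both strands were read, and the search was chosen after seeing the data. The bases before the start are shown for Mt1 and Mt2 with metal response cores in capitals, at chr8:94178839-94179081 and chr8:94172368-94172617, both on the plus strand.
Mt1: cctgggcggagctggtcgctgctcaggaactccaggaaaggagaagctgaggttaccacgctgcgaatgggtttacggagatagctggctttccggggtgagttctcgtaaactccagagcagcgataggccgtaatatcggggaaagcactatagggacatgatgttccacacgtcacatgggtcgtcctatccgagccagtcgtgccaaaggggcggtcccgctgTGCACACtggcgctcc
Mt2: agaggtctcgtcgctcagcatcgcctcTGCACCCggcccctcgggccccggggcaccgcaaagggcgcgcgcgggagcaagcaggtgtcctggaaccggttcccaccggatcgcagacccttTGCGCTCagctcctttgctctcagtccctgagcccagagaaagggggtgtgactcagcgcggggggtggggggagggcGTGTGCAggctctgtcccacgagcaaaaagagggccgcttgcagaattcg

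The whole windows held 3 metal response cores at Mt1, 4 at Mt2, 2 at Slc30a1 and 1 at Slc30a5. At least 1 was present in 25.7% of the 32851 promoter windows in the RefSeq table, at least 3 in 1.97% and at least 4 in 0.517%. The Mt1 window follows the RefSeq start at 94179089. GENCODE M21 lists an Mt1 transcript starting at 94179082, before which the printed stretch ends, and others starting at 94179211 and 94179241, beyond the window. The Mt2 window follows the RefSeq start at 94172618 and ends at 94172667. For Mt2 the same annotation lists starts at 94172664, near the end of the window, and at 94172860, beyond it. The XBP1-type element occurred in 0.676% of all windows. Of the 7 members searched, 1 held it, Slc30a5, at positions 7 to 14 after the start. Of the other zinc genes named here, Slc39a13 held it, at positions 9 to 16. These matches describe letters in a window and not binding. Both sites are shown with the element in capitals, for Slc30a5 at chr13:100833403-100833432 and for Slc39a13 at chr2:91070289-91070318, each on the minus strand.
Slc30a5: gccggggcggaTGACGTGGcccggtaacgt
Slc39a13: actgtcccgtgTGACGTGGctgcacgccgg

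Among the other 20 zinc genes found in the table, 14 were tested, 1 was called higher and none lower by edgeR. Over all genes tested 5.27% were called higher and 5.5% lower, so this count does not stand out from the background. Of those not called, Mtf1 on the lower side and Slc39a13 and Slc30a6 on the higher side had an unadjusted p under 0.05. The median log2 fold change of the 14 was -0.05. The gene called was Slc39a9, which encodes ZIP9, a zinc importer and androgen-binding membrane protein. It averaged 153 ± 9.02 CPM (SD, n = 5) on the western diet and 130 ± 5.87 CPM (SD, n = 5) on chow, and the libraries did not overlap. Its log2 fold change was 0.23 ± 0.05 (SE, adjusted p = 0.00818 in edgeR), called under all 22 alternatives.

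The remaining importers of at least 5 CPM were not called. Slc39a13 encodes ZIP13, a carrier of the early secretory pathway, and had a log2 fold change of 0.16 ± 0.06 (SE, adjusted p = 0.123 in edgeR). The values of Slc39a1, Slc39a3, Slc39a10 and Slc39a11 were 0.00 ± 0.08, -0.03 ± 0.05, -0.18 ± 0.11 and -0.11 ± 0.10 (log2 fold change ± SE). Among exporters, Slc30a4 stood at 0.05 ± 0.06 and Tmem163, a zinc transporter of vesicles outside the Slc30a family, at -0.02 ± 0.07 (log2 fold change ± SE). Mtf1, the metal sensor itself, ran from 45.2 to 52.8 CPM on the western diet and from 50.6 to 57.0 CPM on chow. Its log2 fold change was -0.16 ± 0.06 (SE, adjusted p = 0.088 in edgeR). Cbwd1, a zinc metallochaperone gene, stood at -0.08 ± 0.10 (log2 fold change ± SE).

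**Figure D4:**
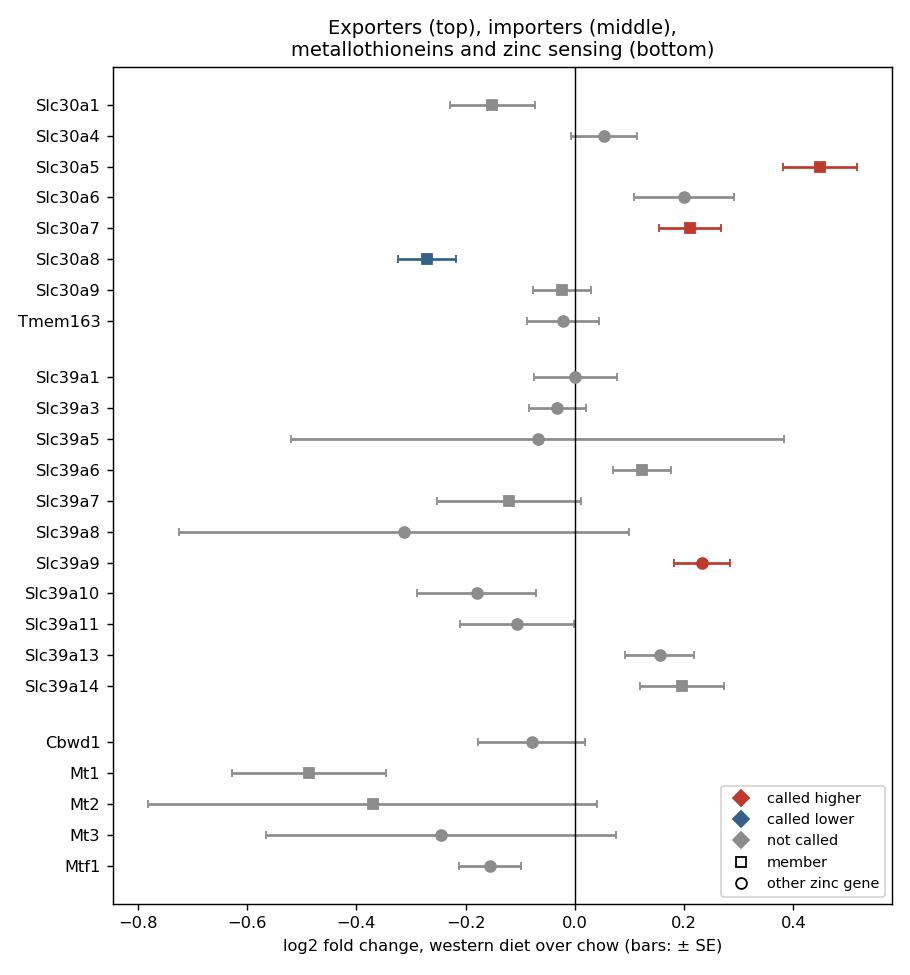
Log2 fold change of western diet over chow with its SE for the 10 members (squares) and the 14 other zinc genes tested (circles), coloured by call. Slc30a5, Slc30a7 and Slc39a9 lie to the right, Slc30a8 to the left, and every gene in grey was not called.

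Levels were compared between genes per length, with the FPKM the authors deposited (fragments scaled to gene length and library size). Slc30a8 led the 30 zinc genes at 598 ± 68.3 FPKM (SD, n = 10) and ranked 27 of all 27665 genes. Mt1 followed at 198 ± 46.0 FPKM (SD, n = 10) and ranked 99. Tmem163, the next, stood at 22.1 ± 1.76 FPKM (SD, n = 10), and none of these ranges overlapped over the 10 libraries. Below them Slc39a9, Slc39a3, Slc39a1, Slc30a5 and Slc39a6 lay between 13.2 and 13.9 FPKM on average and could not be ordered within their spread. A further gap set Slc39a6 above Slc30a9 (8.41 ± 0.481 FPKM, SD, n = 10). From Slc30a9 down, each neighbour in the order overlapped the next in range. The members there were Slc30a1 (5.87), Slc30a7 (5.57), Slc39a7 (3.89), Slc39a14 (2.71) and Mt2 (1.45 FPKM). As a description, Slc30a8 made up 80.8% ± 1.23 (SD, n = 5) of the summed FPKM of the 24 Slc30a and Slc39a genes on the western diet and 84.4% ± 1.07 (SD, n = 5) on chow. Its shares did not overlap, with 78.9% to 82.3% on the western diet and 83.3% to 85.9% on chow.

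**Figure D5:**
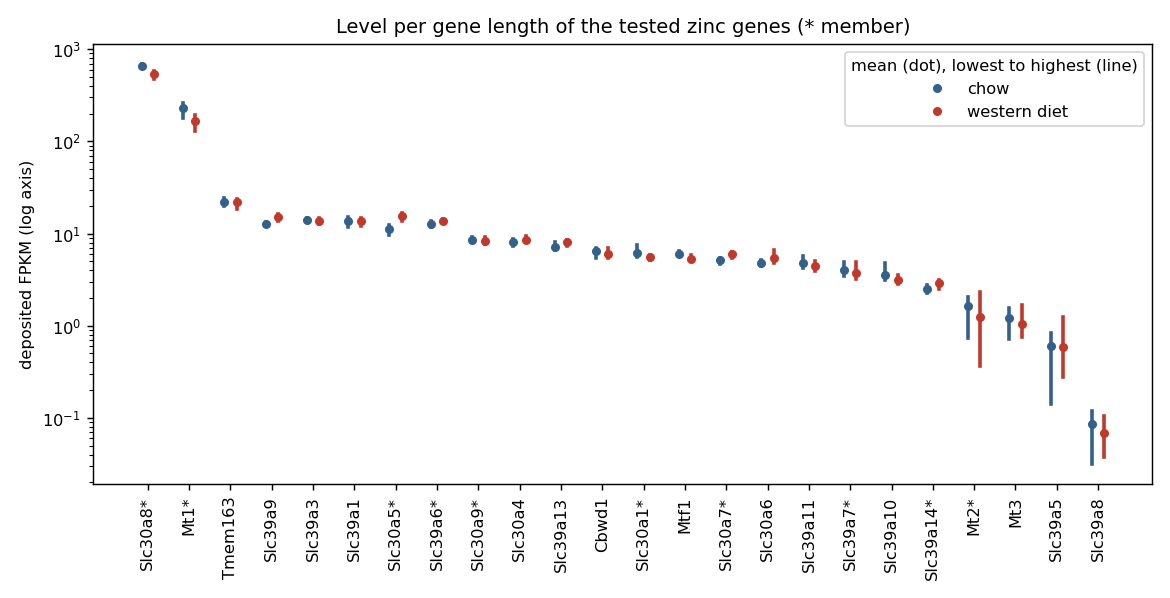
Deposited FPKM (log axis) of the 24 zinc genes tested, in order of their mean, with the mean (dot) and the lowest to highest library (line) of each diet. Slc30a8 and Mt1 stand apart from the rest, and most other members lie between 2.71 and 13.4 FPKM on average.

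Genes of neighbouring metals were counted beside the 10.8% called among all genes tested. Of 8 copper genes, 1 was called higher: Slc31a1, which encodes the copper importer CTR1, with a log2 fold change of 0.32 ± 0.09 (SE, adjusted p = 0.0282 in edgeR). That call was lost in 7 of 22 alternatives. Sod1, the copper and zinc superoxide dismutase, stood at 0.14 ± 0.05 and Atp7a, a copper exporter, at -0.25 ± 0.09 (log2 fold change ± SE). Neither was called by edgeR, and Atp7a was called in 1 of 22 alternatives. Of the copper genes not called, Sod1, Ccs and Atox1 on the higher side and Atp7a on the lower side had an unadjusted p under 0.05. None of 9 iron genes was called by edgeR, and 2 had an unadjusted p under 0.05; Tfrc was called in 6 of 22 alternatives. The smallest p were those of Tfrc, the transferrin receptor, at -0.22 ± 0.07, Slc11a2 at 0.19 ± 0.08 and Steap3 at -0.48 ± 0.33 (log2 fold change ± SE). Glucocorticoids are known inducers of metallothioneins. Of 8 glucocorticoid genes 2 were called higher, Zbtb16 (1.78 ± 0.33, SE) and Fkbp5 (0.72 ± 0.12, SE), and 1 was called lower, the receptor gene Nr3c1 (-0.17 ± 0.05, SE), with adjusted p of 0.00284, 0.00724 and 0.0433 in edgeR. The Nr3c1 call was lost in 12 of 22 alternatives. By sign 2 of the 8 were higher and 6 lower, with a median log2 fold change of -0.15. Of those not called, Per1 (-0.62 ± 0.23, SE) had an unadjusted p under 0.05 in edgeR.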

How the data were processed

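Islet RNA of 10 mice was sequenced, 5 per diet, with the NEBNext Ultra kit, per the labels' protocols. The authors deposited read counts per gene, whole numbers that were not normalized, and FPKM values, per the file headers. The submitters' processing notes list STAR 2.5, HTSeq 2 and DESeq2, with mm10 and GRCm38 as builds; the counting's strand setting was not given in the sources used here. Another 10 columns of per-sample values were not used. Total counts were 16532518 to 23902681 per library, and no libraries were duplicates. The labels give 1 mouse per library.

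Counts were tested with edgeR 4.0.16 (R 4.3.3): filterByExpr with a minimum count of 10, TMM factors, robust quasi-likelihood fit, no covariate, Benjamini-Hochberg over 15104 genes, threshold 0.05. SE is the size of the log2 fold change over the root of F. The fit was tested on simulated data. CPM use the TMM factors, and log2 CPM a prior count of 2. Exon overlaps used GENCODE M21, and promoters RefSeq. The members and lists were chosen with earlier results of these data known. Named were all members, other zinc genes called or of at least 5 CPM, the 3 smallest p of each of the copper, iron, glucocorticoid and heat shock lists, and the 5 genes most like Slc30a8, Mt1 and Mt2. Other genes, among them beta cell markers, Kdr and Slc39a4, were named after their values were seen. Alternatives were RLE and upper quartile factors, other filters, no robust moderation, protein-coding genes only, marker covariates, a mouse-number block, left-out libraries, DESeq2 1.42.0 and limma-voom (limma 3.58.1).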

Additional observations from a re-analysis of the deposited data

Results flagged for a closer look

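A library stood apart from the other 4 of its diet in 4 of 42 groups examined, each group being 1 of 21 zinc genes in 1 diet; chance gives about 1 in 20. Slc39a7 was highest in western diet mouse 5 of cage 4, at 12.85 CPM against 8.32 to 9.38 in the others. Slc30a6 was highest in western diet mouse 2 of cage 4, at 20.42 CPM against 14.9 to 16.5. Slc30a4 was lowest in chow mouse 4, at 40.19 CPM against 45.5 to 47.5. Slc39a10 was highest in chow mouse 2, at 29.0 CPM against 19.3 to 20.6. Among these genes none was called, and the cause of each deviation was not tested.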

How the results depend on the processing

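Slc30a8, Slc30a5 and Slc39a9 kept their direction and call in all 22 alternatives. All genes called, 1627, became 870 with endothelial markers as a covariate and 938 to 1813 with 1 library left out, falling most without western diet mice 4 (985) and 5 (1055) of cage 4 and chow mice 1 (938) and 3 (1050). Members called higher became 1 with endothelial markers as a covariate, 1 without western diet cage 2 mouse 5 and chow mouse 1 together, and 1 to 2 with 1 library left out. Members called lower, 1, became 2 with the minimum of 5 CPM, with no robust moderation, with protein-coding genes only, with acinar markers as a covariate, with DESeq2 and with limma-voom, and 1 to 2 with 1 library left out; Mt1 was the gene gained. Other zinc genes called, 1, became 2 with no filter (Slc39a4 gained) and 1 to 2 with 1 library left out (Mtf1 gained without western diet mouse 4 of cage 4).

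Mouse numbers are shared by the diets, but the labels state no pairing, and the number 5 stands on western diet mice of both cage 4 and cage 2. Deviations of same-numbered libraries correlated at -0.13 to 0.11, values that cannot by themselves show whether mice were paired. With mouse number as a block, 841 genes, 1 member higher, 1 member lower and 1 other zinc gene were called; the fold change of Slc30a7 was 0.20 (adjusted p = 0.105), and signs turned for Slc30a9 (0.0077) and Slc39a1 (-0.042).

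Fold changes near 0 turned sign elsewhere, none of them called. Slc39a1 was -0.0042 with RLE factors, -0.011 with upper quartile factors, -0.016 with the minimum of 5 CPM, -0.0083 with protein-coding genes only, -0.0024 with acinar markers, -0.0041 with DESeq2, -0.044 without western diet cage 2 mouse 5 and chow mouse 1 together, and -0.053 to 0.039 with 1 library left out. Tmem163 ran from -0.062 to 0.029 with 1 library left out, and Cbwd1 was 0.0078 with endothelial markers.

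Mt1 with Mt2 kept r between 0.85 and 0.92 with 1 library left out, and had r = 0.13 without the 3 libraries lowest in Mt1 relative to their diet mean, a choice made after seeing the data that by itself lowers r. Mt1 with Slc30a1 had r from 0.45 to 0.70 with 1 library left out, passing an unadjusted exact permutation p of 0.05 without chow mouse 3. Mt1 with Fkbp5 turned to r = 0.11 without the 2 farthest libraries. The cause of these changes was not tested. Depth limits Mt2 most, at 4 to 29 reads per library.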

Other observations

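Slc39a4 encodes ZIP4, the zinc importer of the absorptive gut. Its reads were too few for the test: the 5 western diet libraries held 10 reads in all (0 to 3 each) and the 5 chow libraries 65 (4 to 28 each). No western diet library reached the lowest chow library in CPM. Tested without the filter on low counts, its log2 fold change was -2.61 ± 0.65 (SE, adjusted p = 0.00603 in edgeR), a value that rests on few reads and was picked after it was seen. Of 8 tested duct cell markers 3 were called lower beside it: Krt19 at -2.64 ± 0.38, Muc1 at -1.01 ± 0.29 and Krt8 at -0.85 ± 0.15 (log2 fold change ± SE). The part of duct cells in the Slc39a4 count was not tested.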
